A study of Mus musculus with 4 samples.

Results

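The chemokine system was examined in the RNA of tumor-associated macrophages (TAMs), as the genes that encode its ligands and its receptors. Members were the protein-coding genes whose mouse symbol is a systematic chemokine name (Ccl, Cxcl, Cx3cl or Xcl and a number) or a systematic receptor name (Ccr, Cxcr, Cx3cr or Ackr and a number). There were 56 members described here, 37 ligands and 19 receptors, among 54532 genes in the count table. Of these, 26 ligands and 10 receptors had enough counts to be tested, and the other 11 ligands and 9 receptors are described by their counts alone.

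RNA was sequenced from 4 libraries, 2 labelled SykMC-WT (M7 and M8) and 2 labelled SykMC-KO (M9 and M10). Syk is a cytoplasmic tyrosine kinase that signals downstream of integrins and Fc receptors. In the SykMC-KO strain (C57BL/6) Cre is driven by the LysM (Lyz2) locus, which is active in macrophages, monocytes and neutrophils, and acts there on a floxed Syk gene, and SykMC-WT mice served as controls. Mice of both genotypes, a few weeks old at the start, received NB9464 cells, the cells of a murine MYCN-amplified neuroblastoma line, and no treatment. Tumors were taken on day 40 and TAMs were drawn from them with CD11b and F4/80 magnetic beads, a step that enriches macrophages without excluding other cells. The labels also name bone marrow-derived macrophages as the source of the RNA and an adoptive transfer in the data's title, and they do not say how many mice stand behind a library or whether the libraries came from separate mice, so the spread between 2 libraries may be technical.

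Chemokines are small secreted proteins that guide leukocytes along gradients. Each acts on seven-transmembrane receptors that couple to inhibitory G proteins, and atypical receptors (Ackr) bind the same ligands and remove them without such signaling. In tumors, macrophages are a known source of chemokines that attract monocytes, neutrophils and T cells, while fibroblasts and endothelial cells are known sources of others, such as Cxcl12. Many chemokine genes lie beside each other in the genome, and many inflammatory members are induced through NF-kappaB, interferons or interleukin-4-activated STAT6.

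The promoters of 6 ligands are shown because neighbors or partners among them differed in their change between genotypes, as described further on: Cxcl2 and Cxcl3 had higher log2 fold changes than Cxcl1, and Cxcl9 a higher one than Cxcl10, while Ccl17 had the highest log2 fold change of all members. The sequences are RefSeq windows on GRCm38.p6, read 5′ to 3′ on the gene's strand, from 250 to 31 bases before the annotated start. Capitals mark matches, on either strand, to a kappaB motif (GGGANNNNCC) in the Cxcl genes, an ISRE (GAAANNGAAA) in Cxcl10, and a GAS (TTCNNNGAA) and a STAT6 motif (TTCNNNNGAA) in Ccl17.
Cxcl1, chr5:90890995-90891214, plus strand: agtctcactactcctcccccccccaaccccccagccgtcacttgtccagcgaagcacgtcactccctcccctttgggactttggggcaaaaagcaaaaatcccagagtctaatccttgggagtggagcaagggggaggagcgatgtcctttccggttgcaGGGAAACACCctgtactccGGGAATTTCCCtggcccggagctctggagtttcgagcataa
Cxcl2, chr5:90903649-90903868, plus strand: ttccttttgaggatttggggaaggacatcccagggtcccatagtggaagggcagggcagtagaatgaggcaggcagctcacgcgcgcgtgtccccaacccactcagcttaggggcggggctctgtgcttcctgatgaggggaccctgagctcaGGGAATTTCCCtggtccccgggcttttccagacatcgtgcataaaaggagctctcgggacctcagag
Cxcl3, chr5:90785851-90786070, plus strand: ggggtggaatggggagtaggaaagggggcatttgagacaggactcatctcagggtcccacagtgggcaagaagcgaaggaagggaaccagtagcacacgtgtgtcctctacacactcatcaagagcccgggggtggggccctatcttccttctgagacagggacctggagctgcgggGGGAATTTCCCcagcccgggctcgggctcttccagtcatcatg
Cxcl9, chr5:92328110-92328329, minus strand: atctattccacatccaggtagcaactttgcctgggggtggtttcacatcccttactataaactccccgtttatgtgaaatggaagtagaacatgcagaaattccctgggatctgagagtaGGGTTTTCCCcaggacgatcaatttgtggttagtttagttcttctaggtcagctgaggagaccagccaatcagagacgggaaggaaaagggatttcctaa
Cxcl10, chr5:92348920-92349139, minus strand: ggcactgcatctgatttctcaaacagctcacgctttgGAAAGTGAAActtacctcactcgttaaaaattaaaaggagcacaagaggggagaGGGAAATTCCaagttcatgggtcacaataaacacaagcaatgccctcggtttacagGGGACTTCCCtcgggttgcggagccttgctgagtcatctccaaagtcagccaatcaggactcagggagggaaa
Ccl17, chr8:94810203-94810422, plus strand: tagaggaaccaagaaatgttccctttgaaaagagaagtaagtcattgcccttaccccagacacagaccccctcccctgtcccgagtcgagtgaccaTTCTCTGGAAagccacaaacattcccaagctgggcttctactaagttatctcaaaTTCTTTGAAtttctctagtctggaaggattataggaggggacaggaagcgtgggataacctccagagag

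Cxcl1, Cxcl2 and Cxcl3 all held the run gggaatttccc, at 71 to 61, 97 to 87 and 73 to 63 bases before the start, in which matches on the 2 strands overlap. These distances depend on the start used, since the RefSeq starts lie 4, 28 and -2 bases downstream of the GENCODE starts of these genes. Cxcl1 held a further kappaB match at 90 to 81 bases. In Cxcl10 the ISRE lay at 213 to 204 bases and kappaB matches at 159 to 150 and 103 to 94 bases, the latter on both strands, whereas Cxcl9 had a single kappaB match, on the minus strand, at 130 to 121 bases. Ccl17 had no kappaB match in this window, a STAT6 match at 154 to 145 bases and a GAS match at 99 to 91 bases. Over the 250 bases before the start, 17.6% of 32851 windows of all genes held the kappaB motif. Of the 43 members that had a window, 19 held it in at least 1 window. Some members had several windows, up to 4 for Ccl27b, so shares of windows and of members are not in the same unit. The ISRE was held by 2.98% of all windows and 3 members, the GAS by 7.02% and 3 members, and the STAT6 motif by 5.85% and 1 member. A match describes the letters and does not show that a factor binds.

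Levels are given as counts per 1000000 library counts after TMM scaling (CPM), and each log2 fold change is that of the SykMC-KO over the SykMC-WT libraries. The targeted gene was not called lower in the libraries labelled SykMC-KO. Syk stood at 27.9 and 23.2 CPM in M7 and M8 and 196 and 160.4 CPM in M9 and M10 (log2 fold change 2.80 ± 0.19 (SE), edgeR adjusted p = 0.000674) under TMM, whereas with libraries scaled to macrophage markers or to pan-leukocyte genes, as described further on, its log2 fold change was 0.068 (edgeR adjusted p = 0.902) and -0.39 (adjusted p = 0.229). The check of the labels by Syk counts therefore failed under TMM and gave no call under the other scalings. Counts of the whole gene cannot show whether a part of it was deleted. Each direction below is that of the libraries as labelled. Lyz2, the locus that carries Cre, was at 296 and 208 CPM in M7 and M8 and 8.64 and 20.2 CPM in M9 and M10 (log2 fold change -4.13 ± 0.43 (SE), edgeR adjusted p = 0.00156). Scaled to macrophage markers or pan-leukocyte genes, the log2 fold change of Lyz2 was -6.69 (edgeR adjusted p = 1.2e-18) and -7.21 (adjusted p = 5.5e-07). Whether the lower Lyz2 counts relate to Cre at the locus was not tested. Total counts were between 20755886 and 23518045 per library, and mitochondrial genes took 2.20% and 2.34% of the counts in M7 and M8 but 6.00% and 15.9% in M9 and M10.

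Marker genes of several cell types differed between the labelled genotypes, and their part in the results on chemokines was not tested. All 10 macrophage markers rose, with a summed level of 917 to 1294 CPM in the SykMC-WT libraries and 6225 to 10373 CPM in the SykMC-KO libraries, and so did all 6 pan-leukocyte genes, at 299 to 386 CPM and 2984 to 4127 CPM. Fibroblast markers, summed, were at 12558 to 14452 CPM in the former and 4058 to 4960 CPM in the latter, and 6 of 8 fell. Among endothelial markers 3 of 8 fell, with sums of 228 to 229 CPM and 167 to 189 CPM. Neutrophil markers rose in 5 of 5 tested, from sums of 27.5 to 39.5 CPM to 219 to 444 CPM, although the defining marker Ly6g had at most 5 counts in any library. T cell markers rose in 4 of 6, from sums of 8.02 to 13.7 CPM to 36.0 to 58.0 CPM, with at most 41 counts of Cd3e in any library. Cd4, which myeloid cells can carry too, stood at 8.31 and 3.38 CPM in M7 and M8 and 49.8 and 25.9 CPM in M9 and M10 among these, while Cd8a and Lck did not pass the test. Dendritic cell markers rose in 3 of 5, from sums of 12.0 to 13.5 CPM to 52.3 to 52.9 CPM. Of 5 neuroblastoma markers, Dbh and Th had 0 counts in every library, and the sums were 21.8 to 22.6 CPM and 32.3 to 44.1 CPM, mostly of Mycn. In such bulk RNA, fewer cells of a type and less RNA per cell cannot be told apart.

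Most chemokine ligands were higher in the libraries labelled SykMC-KO. Of the 26 tested, 21 rose, 2 fell (Ccl11 and Ccl27a) and 3 did not pass the test (Ccl25, Cxcl12 and Cx3cl1), where passing means an adjusted p under 0.05 in edgeR's quasi-likelihood test over 16451 genes. The background of that test was wide, with 22.7% of all genes tested higher and 16.7% lower. The median log2 fold change of the tested ligands was 3.17, within a range of -2.35 to 6.18, beside 0.02 for all genes tested. Ligand counts made up 0.0843% and 0.0708% of all counts in M7 and M8 and 0.620% and 0.293% in M9 and M10. Of the 21 that rose, 18 were higher in M9 than in M10, with a median ratio of 1.77 between these libraries. The direction depended on the scaling for some: 5 of the 21 were below 0 on the log2 scale when libraries were scaled to macrophage markers, and 10 when they were scaled to pan-leukocyte genes.

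**Figure D1:**
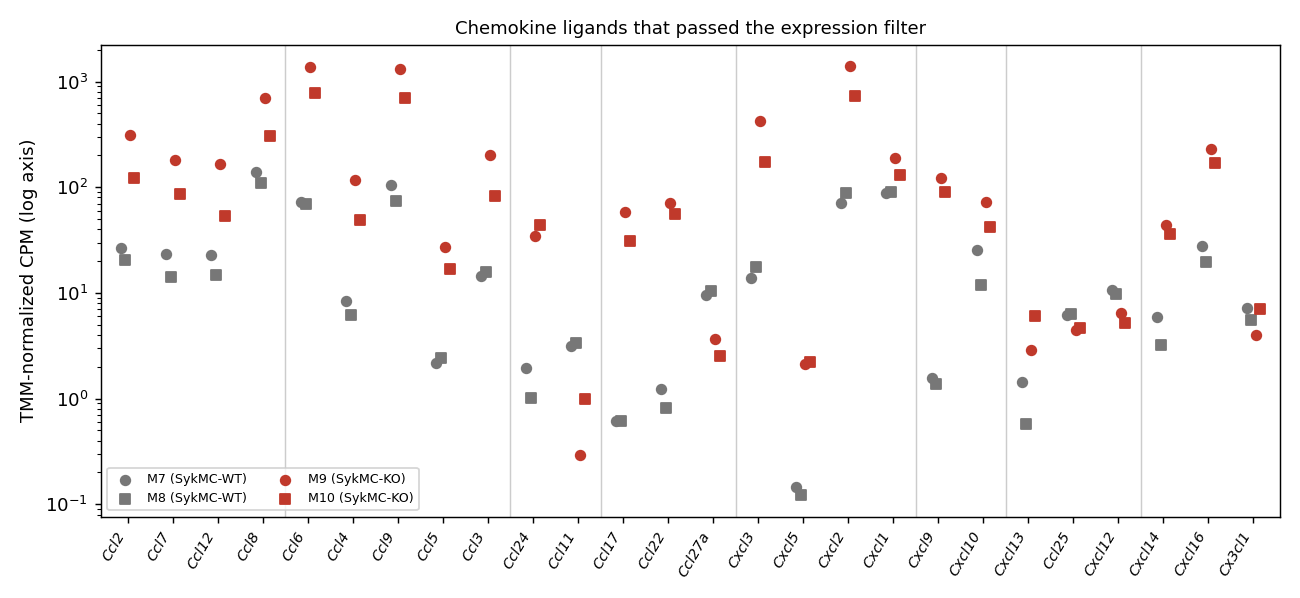
Level of each of the 26 tested chemokine ligands in the 4 libraries, as TMM-normalized CPM on a log axis. Each point is 1 library (grey, SykMC-WT; red, SykMC-KO), and vertical lines separate groups by role. The 21 ligands that rose are higher in red under this TMM scaling, a direction that other scalings turn for up to 10 of them. Ccl11 and Ccl27a are lower in red.

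The monocyte chemoattractants Ccl2, Ccl7, Ccl8 and Ccl12 all rose under TMM scaling, while Ccl8 and Ccl12 were below 0 when scaled to macrophage markers and all 4 when scaled to pan-leukocyte genes. Ccl2, which draws monocytes out of the blood, was at 26.5 and 20.4 CPM in M7 and M8 and 309.6 and 122 CPM in M9 and M10 (log2 fold change 3.20 ± 0.45 (SE), edgeR adjusted p = 0.00357). Ccl7, its neighbor in the genome, was at 23.2 and 14.1 CPM in M7 and M8 and 181 and 87.0 CPM in M9 and M10 (log2 fold change 2.84 ± 0.41 (SE), edgeR adjusted p = 0.00380). Ccl12, a mouse gene near them, was at 22.6 and 14.8 CPM in M7 and M8 and 164 and 54.0 CPM in M9 and M10 (log2 fold change 2.54 ± 0.52 (SE), edgeR adjusted p = 0.0118). In each of these 3 the SykMC-KO libraries differed from each other more than the SykMC-WT libraries did. Ccl8 was at 139 and 109.9 CPM in M7 and M8 and 702 and 306 CPM in M9 and M10 (log2 fold change 2.02 ± 0.40 (SE), edgeR adjusted p = 0.0102), the smallest change of the 4 genes. M9 was the highest library for each of the 4. Without it the log2 fold changes were 2.28 for Ccl2, 2.13 for Ccl7, 1.44 for Ccl12 and 1.21 for Ccl8. Without M10 that of Ccl12 was 3.15.

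Ccl3, Ccl4, Ccl5, Ccl6 and Ccl9, inflammatory ligands encoded beside each other, all rose by amounts close to each other, and of these 5 only Ccl3 turned below 0 under a scaling, that to pan-leukocyte genes. Ccl6, a rodent ligand of Ccr1, was at 71.9 and 69.1 CPM in M7 and M8 and 1388 and 786 CPM in M9 and M10 (log2 fold change 3.95 ± 0.33 (SE), edgeR adjusted p = 0.000891). Ccl9, which also acts on Ccr1 and is encoded beside it, was at 105 and 74.1 CPM in M7 and M8 and 1320.0 and 693 CPM in M9 and M10 (log2 fold change 3.49 ± 0.38 (SE), edgeR adjusted p = 0.00167). In both genes the SykMC-KO libraries stood far above the SykMC-WT libraries, with M9 the highest. Ccl3, which binds Ccr1, was at 14.4 and 15.7 CPM in M7 and M8 and 202 and 82.1 CPM in M9 and M10 (log2 fold change 3.24 ± 0.42 (SE), edgeR adjusted p = 0.00284). Its neighbor Ccl4, which draws monocytes and lymphocytes, was at 8.31 and 6.14 CPM in M7 and M8 and 117 and 48.5 CPM in M9 and M10 (log2 fold change 3.51 ± 0.44 (SE), edgeR adjusted p = 0.00250). Ccl5, which draws T cells and monocytes, was at 2.15 and 2.40 CPM in M7 and M8 and 27.1 and 16.9 CPM in M9 and M10 (log2 fold change 3.27 ± 0.33 (SE), edgeR adjusted p = 0.00137). Without M9 the log2 fold changes of Ccl3, Ccl4 and Ccl9 were 2.36, 2.66 and 2.86.

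The eotaxins, which draw eosinophils through Ccr3, went in opposite directions. Ccl24 was at 1.93 and 1.02 CPM in M7 and M8 and 34.2 and 44.1 CPM in M9 and M10 (log2 fold change 4.72 ± 0.35 (SE), edgeR adjusted p = 0.000729), 1 of 3 ligands that rose and were higher in M10 than in M9. Ccl11 was at 3.14 and 3.34 CPM in M7 and M8 and 0.291 and 0.981 CPM in M9 and M10 (log2 fold change -2.35 ± 0.67 (SE), edgeR adjusted p = 0.0341), so that its SykMC-KO libraries lay below its SykMC-WT libraries, with 6 and 18 counts in M9 and M10. The call was lost without M7 and also without M8. Its log2 fold change was -2.39 without M7, -2.31 without M8, -1.80 without M9 and -3.44 without M10. The third eotaxin, Ccl26, had 0 counts in every library. Among fibroblast markers 6 of 8 fell too, beside 16.7% of all genes tested, and a link to Ccl11 was not tested.

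Ccl17 and Ccl22, ligands of Ccr4 that draw regulatory and type 2 helper T cells, had among the highest changes of all members. Ccl17 was at 0.620 and 0.610 CPM in M7 and M8 and 58.9 and 31.1 CPM in M9 and M10 (log2 fold change 6.18 ± 0.42 (SE), edgeR adjusted p = 0.000674), a ratio of 73.1 between the genotype means that rests on 17 and 15 counts in M7 and M8. Without M9 its log2 fold change was 5.56. Ccl22 was at 1.24 and 0.814 CPM in M7 and M8 and 71.0 and 56.3 CPM in M9 and M10 (log2 fold change 5.94 ± 0.28 (SE), edgeR adjusted p = 0.000486), a ratio of 62.0 that rests on 34 and 20 counts. Their receptor, Ccr4, had 3 counts in M8 and 0 in the other libraries. Ccl27a, a skin-associated ligand of Ccr10, was at 9.48 and 10.3 CPM in M7 and M8 and 3.64 and 2.51 CPM in M9 and M10 (log2 fold change -1.68 ± 0.34 (SE), edgeR adjusted p = 0.0108), below the SykMC-WT libraries in both SykMC-KO libraries. Its edgeR adjusted p was 0.0614 without M7 and 0.102 without M8. It has a near-identical copy, Ccl27b, at 0 counts in every library, and reads of such copies can be assigned to either.

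The neutrophil-attracting ligands of Cxcr2 all rose under TMM scaling, with Cxcl1 turned below 0 when scaled to macrophage markers or pan-leukocyte genes. Cxcl2 was at 70.6 and 87.7 CPM in M7 and M8 and 1401 and 729 CPM in M9 and M10 (log2 fold change 3.75 ± 0.37 (SE), edgeR adjusted p = 0.00130). Cxcl3 was at 13.7 and 17.8 CPM in M7 and M8 and 424 and 172 CPM in M9 and M10 (log2 fold change 4.24 ± 0.46 (SE), edgeR adjusted p = 0.00167). Without M9 these log2 fold changes were 3.12 and 3.37. Cxcl1, which acts on the same receptor and shares with them the kappaB run shown above, was at 88.5 and 90.1 CPM in M7 and M8 and 188 and 131 CPM in M9 and M10 (log2 fold change 0.84 ± 0.21 (SE), edgeR adjusted p = 0.0219), with an edgeR adjusted p of 0.120 without M7 and 0.136 without M8. Cxcl5 was at 0.146 and 0.122 CPM in M7 and M8 and 2.14 and 2.23 CPM in M9 and M10 (log2 fold change 3.97 ± 0.67 (SE), edgeR adjusted p = 0.00635), from 4 and 3 counts in M7 and M8 and 44 and 41 in M9 and M10. Its edgeR adjusted p was 0.0761 without M7 and 0.102 without M8.

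The ligands of Cxcr3 are induced by interferons and draw activated T cells and natural killer cells, and both rose under TMM scaling, with Cxcl10 turned below 0 when scaled to macrophage markers or pan-leukocyte genes. Cxcl9 was at 1.57 and 1.38 CPM in M7 and M8 and 122 and 90.0 CPM in M9 and M10 (log2 fold change 6.16 ± 0.25 (SE), edgeR adjusted p = 0.000486), a ratio of 71.8 between the genotype means, from 43 and 34 counts in M7 and M8. Cxcl10, its neighbor in the same 92321347 to 92348889 stretch of chromosome 5, was at 25.3 and 11.9 CPM in M7 and M8 and 73.0 and 42.3 CPM in M9 and M10 (log2 fold change 1.63 ± 0.41 (SE), edgeR adjusted p = 0.0223). The SykMC-WT libraries themselves differed in Cxcl10, and its log2 fold change was 2.28 without M7 and 1.18 without M8, where the edgeR adjusted p was 0.0658. The related Cxcl11, annotated as a polymorphic pseudogene and so no member, had 2 and 0 counts in M7 and M8 and 20 and 19 in M9 and M10.

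Among ligands known for constant expression in lymphoid, mucosal or stromal cells, only Cxcl13 rose of the 3 tested, and it was below 0 when scaled to macrophage markers or pan-leukocyte genes. Cxcl13, which draws B cells through Cxcr5, was at 1.42 and 0.570 CPM in M7 and M8 and 2.91 and 6.05 CPM in M9 and M10 (log2 fold change 2.16 ± 0.65 (SE), edgeR adjusted p = 0.0395). Its edgeR adjusted p was 0.0592 without M7 and 0.251 without M8, and its log2 fold change was 2.96 without M7 and 1.55 without M10. Cxcl12, the stromal ligand of Cxcr4, was at 10.7 and 9.68 CPM in M7 and M8 and 6.41 and 5.23 CPM in M9 and M10 (log2 fold change -0.81 ± 0.28 (SE), edgeR adjusted p = 0.0610). Both SykMC-KO libraries lay below both SykMC-WT libraries. The value missed the threshold here. It passed by library size alone (edgeR adjusted p = 0.0148) and with at least 10 counts asked in every library (edgeR adjusted p = 0.0404). Without mitochondrial and rRNA-like genes it passed as well (edgeR adjusted p = 0.0440). The log2 fold change of Cxcl12 was -1.05 without M9 and -0.66 without M10. Ccl25, known from thymus and gut, was at 6.23 and 6.31 CPM in M7 and M8 and 4.47 and 4.69 CPM in M9 and M10 (log2 fold change -0.45 ± 0.32 (SE), edgeR adjusted p = 0.290). In both genes the SykMC-KO libraries lay below the SykMC-WT libraries, but neither passed edgeR's test with TMM scaling over 16451 genes. With 2 libraries per genotype such an order often arises by chance. A link to the fibroblast markers was not tested.

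The remaining tested ligands were Cxcl14, Cxcl16 and Cx3cl1. Cxcl16, a membrane-bound chemokine that also acts as a scavenger receptor, was at 27.6 and 19.7 CPM in M7 and M8 and 232 and 168 CPM in M9 and M10 (log2 fold change 3.08 ± 0.26 (SE), edgeR adjusted p = 0.000898). Cxcl14, a ligand best known from epithelia, was at 5.91 and 3.21 CPM in M7 and M8 and 44.0 and 36.3 CPM in M9 and M10 (log2 fold change 3.13 ± 0.32 (SE), edgeR adjusted p = 0.00148). These 2 rose in a like range and were at -0.12 and -0.03 when scaled to pan-leukocyte genes. Cx3cl1, the membrane-bound ligand of Cx3cr1, was at 7.15 and 5.49 CPM in M7 and M8 and 3.98 and 6.97 CPM in M9 and M10 (log2 fold change -0.21 ± 0.39 (SE), edgeR adjusted p = 0.701). Its genotypes overlapped, and its log2 fold change was 0.054 without M9 and -0.65 without M10.

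Receptors were also higher in the libraries labelled SykMC-KO. Of 10 tested, 6 rose (Ccr1, Ccr3, Ccr7, Cx3cr1, Cxcr2 and Cxcr4), Ackr3 fell, and Cxcr3, Cxcr6 and Ackr2 did not pass the test, beside the background shares of 22.7% and 16.7%. Their median log2 fold change was 2.29, within -1.21 to 3.78. All 6 that rose were higher in M9 than in M10, by a median ratio of 1.44. Of these 6, 3 were below 0 on the log2 scale when libraries were scaled to macrophage markers and 4 when they were scaled to pan-leukocyte genes.

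**Figure D2:**
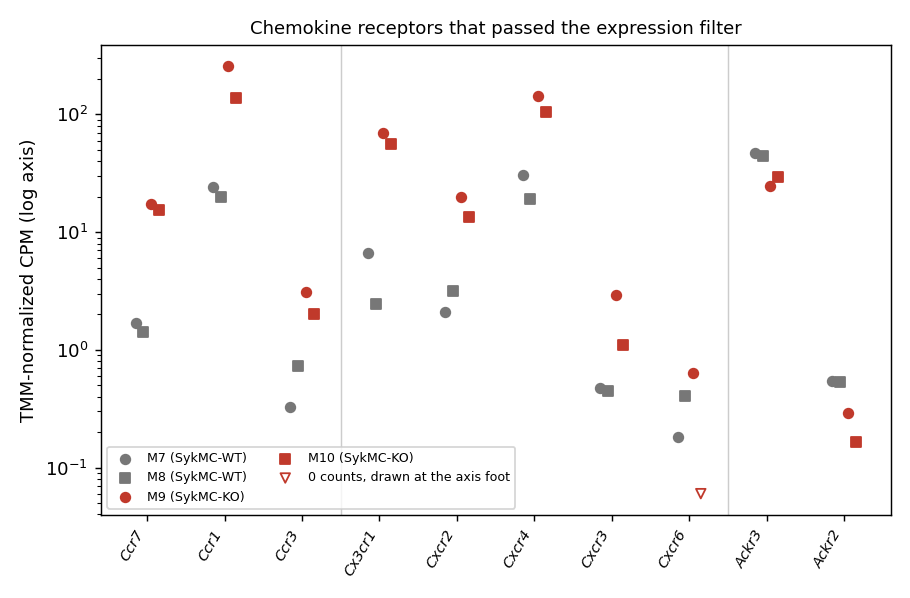
Level of each of the 10 tested chemokine receptors in the 4 libraries, as TMM-normalized CPM on a log axis, with CC, CXC and CX3C, and atypical receptors separated by vertical lines. Each filled point is 1 library (grey, SykMC-WT; red, SykMC-KO) and an open triangle marks 0 counts. Ccr1, Cx3cr1 and Cxcr4 are well above the grey points in red under this scaling, while Ackr3 is lower in red.

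The CC receptors Ccr1, Ccr3 and Ccr7 rose under TMM scaling, with Ccr3 turned below 0 when scaled to macrophage markers or pan-leukocyte genes and Ccr1 when scaled to the latter. Ccr1, found on monocytes, macrophages and neutrophils, was at 24.0 and 19.9 CPM in M7 and M8 and 258 and 138 CPM in M9 and M10 (log2 fold change 3.17 ± 0.33 (SE), edgeR adjusted p = 0.00149), and its log2 fold change was 2.56 without M9. Ccr7, which leads dendritic cells and T cells to lymph nodes, was at 1.68 and 1.42 CPM in M7 and M8 and 17.3 and 15.4 CPM in M9 and M10 (log2 fold change 3.39 ± 0.29 (SE), edgeR adjusted p = 0.000941), with SykMC-KO libraries close to each other. Ccr3, the eotaxin receptor, was at 0.328 and 0.732 CPM in M7 and M8 and 3.11 and 2.02 CPM in M9 and M10 (log2 fold change 2.27 ± 0.65 (SE), edgeR adjusted p = 0.0348), from 9 and 18 counts in M7 and M8. Its edgeR adjusted p was 0.294 without M7 and 0.145 without M8, and its log2 fold change was 2.94 without M8. The receptors Ccr4, Ccr6, Ccr8, Ccr9 and Ccr10 were at the limit of detection and had at most 11 counts in any library.

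Among CXC and CX3C receptors, Cxcr4, Cxcr2 and Cx3cr1 rose under TMM scaling, and the first 2 were below 0 when scaled to macrophage markers or pan-leukocyte genes. Cxcr4, which holds and guides many leukocytes along Cxcl12, was at 30.5 and 19.2 CPM in M7 and M8 and 144 and 104 CPM in M9 and M10 (log2 fold change 2.31 ± 0.28 (SE), edgeR adjusted p = 0.00218). Cx3cr1, a receptor of monocytes and tissue macrophages, was at 6.67 and 2.44 CPM in M7 and M8 and 69.7 and 56.3 CPM in M9 and M10 (log2 fold change 3.78 ± 0.45 (SE), edgeR adjusted p = 0.00212), and without M7, the higher of the SykMC-WT libraries, its log2 fold change was 4.69. Cxcr2, the neutrophil receptor of Cxcl1, Cxcl2, Cxcl3 and Cxcl5, was at 2.08 and 3.17 CPM in M7 and M8 and 20.0 and 13.4 CPM in M9 and M10 (log2 fold change 2.67 ± 0.36 (SE), edgeR adjusted p = 0.00302), beside neutrophil markers that rose in 5 of 5. Cxcr3, carried by activated T cells, was at 0.474 and 0.448 CPM in M7 and M8 and 2.91 and 1.09 CPM in M9 and M10 (log2 fold change 2.11 ± 0.72 (SE), edgeR adjusted p = 0.0576). Its log2 fold change was 1.15 without M9 and 2.66 without M10. It passed the test with no filter on low counts (edgeR adjusted p = 0.0291) and with at least 10 counts asked in every library (edgeR adjusted p = 0.0252). Cxcr6, the receptor of Cxcl16, had 5, 10, 13 and 0 counts in M7, M8, M9 and M10 (log2 fold change 0.14 ± 1.35 (SE), edgeR adjusted p = 0.946). The sign of its change depended on the libraries used, with -5.83 without M9, -0.34 without M7, 0.78 without M8 and 1.11 without M10. Cxcr1, the second neutrophil receptor, had 2 and 0 counts in the SykMC-WT libraries and 18 and 7 in the SykMC-KO libraries and was not tested.

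Of the 2 atypical receptors tested, 1 fell and 1 did not pass. Ackr3, which scavenges Cxcl12 and is known from endothelial and stromal cells, was at 47.2 and 44.2 CPM in M7 and M8 and 24.8 and 29.4 CPM in M9 and M10 (log2 fold change -0.76 ± 0.17 (SE), edgeR adjusted p = 0.0157), with both SykMC-KO libraries below both SykMC-WT libraries. Its edgeR adjusted p was 0.126 without M7 and 0.103 without M8. Ackr2, which removes inflammatory CC chemokines, had 15 and 13 counts in M7 and M8 and 6 and 3 in M9 and M10 (log2 fold change -1.21 ± 0.78 (SE), edgeR adjusted p = 0.257). Ackr1 and Ackr4 had at most 23 counts in any library.

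Because macrophage and leukocyte genes were themselves higher in the SykMC-KO libraries, the changes were also computed with each library scaled to the geometric mean count of the 10 macrophage markers or of the 6 pan-leukocyte genes. These scalings moved the median log2 fold change of all genes to -2.70 and -3.17. Of all genes tested, 0.827% were then higher and 86.3% lower with macrophage markers, and 0.565% higher and 90.4% lower with pan-leukocyte genes. Scaled to macrophage markers, 6 ligands were higher (Cxcl9, Ccl17, Ccl22, Ccl24, Cxcl3 and Ccl6) and 7 lower, and 1 receptor (Cx3cr1) was higher and 3 lower. Scaled to pan-leukocyte genes, 5 ligands were higher (Cxcl9, Ccl17, Ccl22, Ccl24 and Cxcl3) and 8 lower, while 0 receptors were higher, also at an unadjusted p under 0.05 in edgeR, and 4 lower. The reference genes did not all move alike. Mertk was itself lower when scaled to macrophage markers (-2.18, edgeR adjusted p = 9.5e-05), and Arhgdib when scaled to pan-leukocyte genes (-1.26, edgeR adjusted p = 0.00182). The sign of members near 0 can therefore depend on the reference genes chosen.

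Cxcl9 had the highest log2 fold change of the ligands under both of these scalings, at 3.41 (edgeR adjusted p = 1.03e-07) and 2.95 (adjusted p = 7.43e-06), with Ccl17 and Ccl22 close to it. Ccl17 was at 3.37 (edgeR adjusted p = 6.63e-06) and 2.94 (adjusted p = 0.000109), Ccl22 at 3.24 (edgeR adjusted p = 2.01e-06) and 2.76 (adjusted p = 4.84e-05) and Ccl24 at 2.12 (edgeR adjusted p = 0.00176) and 1.61 (adjusted p = 0.00822). Cxcl3 was at 1.34 (edgeR adjusted p = 0.0136) and 0.94 (adjusted p = 0.0260). All 5 passed edgeR's test under both scalings. Counts of Cxcl9 per 100 macrophage marker counts (the geometric mean of the 10 genes) were 1.62, 2.05, 17.9 and 20.9 in M7, M8, M9 and M10. Those of Ccl22 were 1.28, 1.21, 10.4 and 13.1, and those of Ccl17 were 0.639, 0.905, 8.66 and 7.23. On this scale M9 and M10 lay close together in these 3 genes, but less so in Ccl24 and Cxcl3. Counts of Ccl24 were 1.99, 1.51, 5.03 and 10.3 in M7, M8, M9 and M10, and those of Cxcl3 were 14.1, 26.4, 62.3 and 40.1.

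Other members did not keep their direction. Cxcl1 was at -1.95 (edgeR adjusted p = 0.000614) and -2.39 (adjusted p = 8.79e-06), Cxcl10 at -1.09 (edgeR adjusted p = 0.0453) and -1.56 (adjusted p = 0.000968) and Ccl8 at -0.81 (edgeR adjusted p = 0.147) and -1.24 (adjusted p = 0.00363). Cxcr4 was at -0.41 (edgeR adjusted p = 0.453) and -0.87 (adjusted p = 0.0162). Some CC ligands lay near 0 on these scales: Ccl2 was at 0.36 (edgeR adjusted p = 0.512) and -0.07 (adjusted p = 0.846), Ccl3 at 0.36 (edgeR adjusted p = 0.508) and -0.05 (adjusted p = 0.891) and Ccl5 at 0.46 (edgeR adjusted p = 0.516) and 0.03 (adjusted p = 0.959). Ccr1, near 0 too, was at 0.37 (edgeR adjusted p = 0.497) and -0.07 (adjusted p = 0.832). The ligands that were lower under TMM or did not pass were further down, with Cxcl12 at -3.56 (edgeR adjusted p = 1.43e-07) and -4.01 (adjusted p = 1.11e-06) and Ccl11 at -4.95 (edgeR adjusted p = 3.18e-07) and -5.45 (adjusted p = 1.67e-05).

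**Figure D3:**
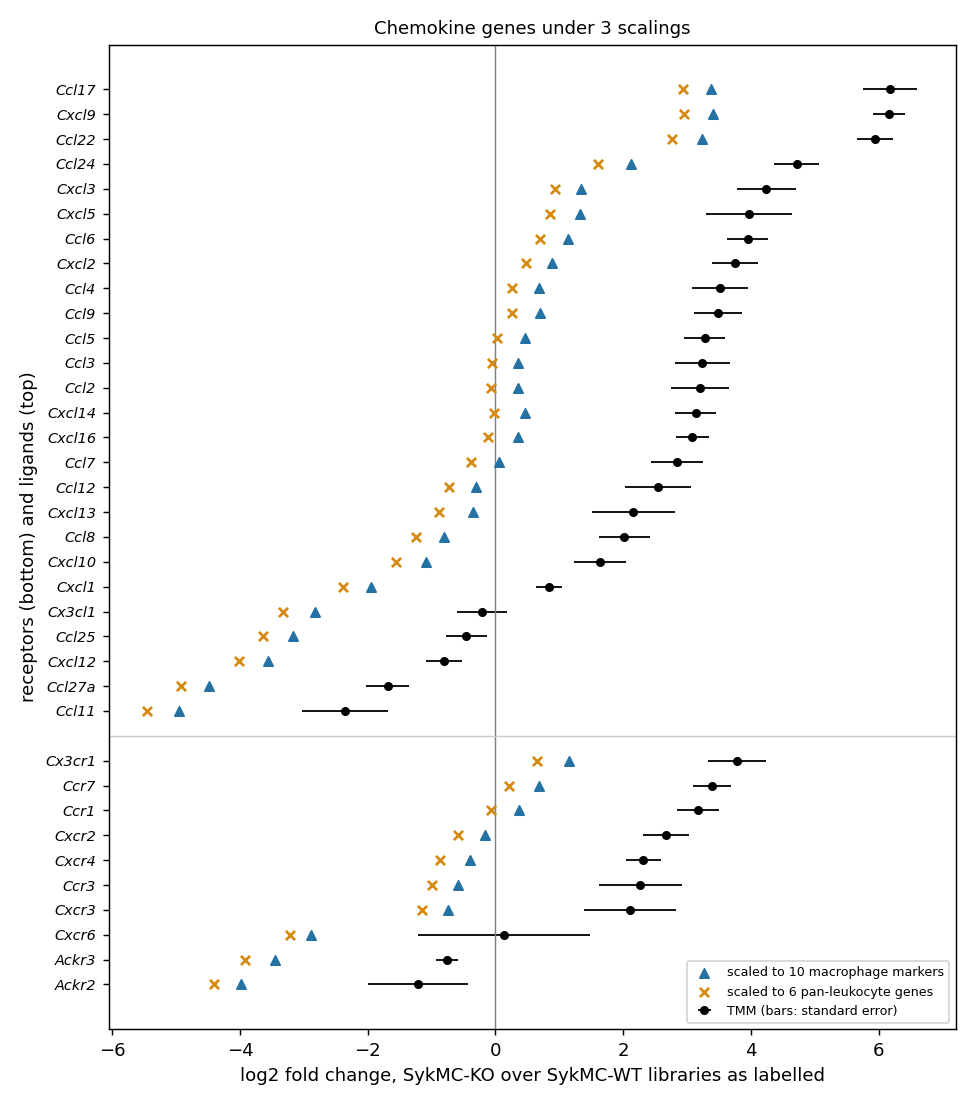
Log2 fold change (SykMC-KO over SykMC-WT libraries as labelled) of the 36 tested members under 3 scalings. Black points with standard error bars are the TMM values, blue triangles the values scaled to 10 macrophage markers and orange crosses those scaled to 6 pan-leukocyte genes. Both of the latter lie to the left of the black points, and Cxcl9, Ccl17, Ccl22 and Ccl24 remain right of 0.

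Ratios of counts between related members in 1 library need no scaling across libraries. The ratio of Cxcl2 to Cxcl1 was 0.797 and 0.974 in M7 and M8 and 7.44 and 5.56 in M9 and M10. That of Cxcl3 to Cxcl1 was 0.155, 0.197, 2.25 and 1.31 in the same order, and that of Cxcl9 to Cxcl10 was 0.0621, 0.116, 1.67 and 2.13. So within each pair, genes that share a receptor changed unequally. By contrast the ratio of Ccl3 to Ccl4 was 1.73 and 2.56 in M7 and M8 and 1.73 and 1.69 in M9 and M10, with genotypes that overlapped. For the ligand Cxcl12 and its receptor Cxcr4 the ratio was 0.352, 0.503, 0.0447 and 0.0503. With 2 libraries per genotype the exact two-sided permutation test cannot give a p below 0.333, the value it gave for each of these ratios but Ccl3 to Ccl4 (0.667).

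Many members are neighbors, and 34 of the 56 lie in 10 groups whose genes are at most 200 kb apart (GENCODE M21, GRCm38). On chromosome 11, between 83525778 and 83664683, Ccl5, Ccl9, Ccl6, Ccl3 and Ccl4 follow each other and all rose, by 3.24 to 3.95 on the log2 scale under TMM. Further up the same chromosome, from 82035571 to 82305690, Ccl11 lies between Ccl7 and Ccl12 and fell while Ccl2, Ccl7, Ccl12 and Ccl8 rose under TMM. On chromosome 8, between 94745590 and 94812036, Cx3cl1 lies between Ccl22 and Ccl17. It did not pass the test (log2 fold change -0.21 ± 0.39), whereas the genes on either side had values of 5.94 ± 0.28 and 6.18 ± 0.42 (SE). The ratio of Ccl17 to Cx3cl1 counts was 0.0867, 0.111, 14.8 and 4.45 in M7, M8, M9 and M10. On chromosome 5, from 90759360 to 90905938, Cxcl1 with 0.84 ± 0.21 is followed by Cxcl2 with 3.75 ± 0.37.

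**Figure D4:**
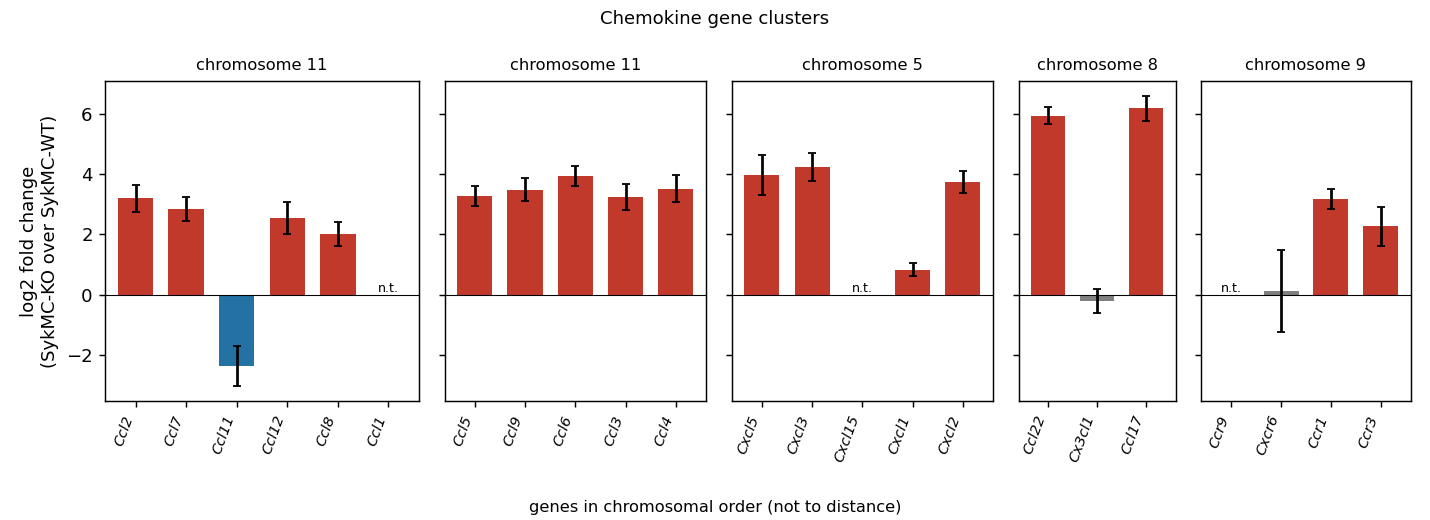
Log2 fold change of members in the 5 genomic clusters with at least 3 tested members, in chromosomal order and not to distance. Bars are values with standard errors under TMM scaling (red, rose; blue, fell; grey, did not pass the test; n.t., not tested). Ccl11 falls among genes that rose on chromosome 11, and Cx3cl1 between Ccl22 and Ccl17 stays near 0 on chromosome 8.

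Levels of different genes were compared per kilobase of exon. In the SykMC-WT libraries Ccl8 was the most abundant ligand at 243 ± 40.0 CPM per kb (SD, n = 2), followed by Cxcl1 at 47.6 ± 0.594, Ccl6 at 39.3 ± 1.09 and Cxcl2 at 38.3 ± 5.86, of which the last pair changed order between M7 and M8. In the SykMC-KO libraries Ccl8 was again first at 986 ± 548 CPM per kb, followed by Ccl6 at 606 ± 237, Cxcl2 at 515 ± 230 and Ccl9 at 330.5 ± 146, in the same order in M9 and in M10. Among receptors, Cxcr4 at 13.8 ± 4.39 and Ackr3 at 13.7 ± 0.629 CPM per kb led in the SykMC-WT libraries, ahead of Ccr1 at 7.74 ± 1.03. In the SykMC-KO libraries Ccr1 at 69.8 ± 30.0 and Cxcr4 at 68.4 ± 15.5 CPM per kb led, followed by Cx3cr1 at 14.0 ± 2.10, and Ackr3 was at 8.08 ± 0.974.

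Genes that share the pathway but not the naming rule were listed as well. Of 9 such genes, 8 rose and Rarres2 did not pass the test, beside 22.7% of all genes higher. The median log2 fold change of the 9 was 3.19. Cd74, a receptor of the cytokine Mif and the invariant chain of MHC class II, was at 143 and 159 CPM in M7 and M8 and 4789 and 4939 CPM in M9 and M10 (log2 fold change 5.01 ± 0.28 (SE), edgeR adjusted p = 0.000486). Mif was at 242 and 221 CPM in M7 and M8 and 499 and 471 CPM in M9 and M10 (log2 fold change 1.07 ± 0.17 (SE), edgeR adjusted p = 0.00546), a direction that turned when libraries were scaled to macrophage markers or pan-leukocyte genes, at -1.66 (edgeR adjusted p = 0.00392) and -2.12 (adjusted p = 3.97e-05). Pf4 (Cxcl4), a chemokine of platelets and macrophages, was at 48.5 and 34.8 CPM in M7 and M8 and 544 and 215 CPM in M9 and M10 (log2 fold change 3.19 ± 0.46 (SE), edgeR adjusted p = 0.00380). Ccrl2, a receptor that presents chemerin, was at 15.2 and 11.4 CPM in M7 and M8 and 157 and 108 CPM in M9 and M10 (log2 fold change 3.32 ± 0.26 (SE), edgeR adjusted p = 0.000790). Their medians were 0.36 when scaled to macrophage markers and -0.08 when scaled to pan-leukocyte genes, and under each 2 of the 9 were higher (Cd74 and Ppbp) and 2 lower (Mif and Rarres2), beside the shares of 0.827% and 86.3% of all genes under the former scaling and 0.565% and 90.4% under the latter.

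Of 27 genes that carry or regulate the signal downstream of chemokine receptors, 19 rose, 0 fell and 8 did not pass edgeR's test. Of all genes tested, 22.7% were higher and 16.7% lower. The median over the 27 was 1.23 on the log2 scale. At an unadjusted p under 0.05, 1 was lower, and DESeq2 likewise called 0 lower after adjustment. Those with the highest mean CPM were Cdc42, a small GTPase of cell polarity, at 376 and 307 CPM in M7 and M8 and 875 and 722 CPM in M9 and M10 (log2 fold change 1.23 ± 0.21 (SE), edgeR adjusted p = 0.00690), and Gnb1, a beta subunit of G proteins, at 401 and 361 CPM in M7 and M8 and 563 and 573 CPM in M9 and M10 (log2 fold change 0.58 ± 0.18 (SE), edgeR adjusted p = 0.0433). Next was Gnai2, the inhibitory G protein subunit of leukocytes, at 234 and 204 CPM in M7 and M8 and 812 and 605 CPM in M9 and M10 (log2 fold change 1.69 ± 0.22 (SE), edgeR adjusted p = 0.00281). Rac1, which drives membrane protrusion, was at 250.2 and 207 CPM in M7 and M8 and 538 and 405 CPM in M9 and M10 (log2 fold change 1.05 ± 0.22 (SE), edgeR adjusted p = 0.0122). All 4 were below 0 on the log2 scale when libraries were scaled to macrophage markers or pan-leukocyte genes. When libraries were scaled to macrophage markers, 0 of the 27 were higher and 14 lower, with a median of -1.51, and when they were scaled to pan-leukocyte genes, 0 were higher and 17 lower by edgeR, with 1 and 0 higher at an unadjusted p under 0.05. The shares of all genes lower under these scalings were 86.3% and 90.4%.

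The 20 members that could not be tested had at most 23 counts in any library. Ccl20, Ccl21b, Ccl26 and Ccl27b had 0 counts in all 4 libraries. Ccl21a, a lymph node chemokine with near-identical copies, had 20, 5, 1 and 0 counts in M7, M8, M9 and M10. Xcl1, made by natural killer and T cells, had 3, 4, 12 and 5 counts in the same order, and Ccl28 had 10, 2, 9 and 0. Ccl19, a ligand of Ccr7, had 5, 8, 2 and 2 counts. Ccl1, Cxcl15, Cxcl17 and the B cell receptor Cxcr5 had at most 7 counts in any library. A count of 3, taken as the smallest detectable, corresponded to 0.109 to 0.164 CPM, and apart from Cxcr1 these genes showed no difference detectable at this depth. Cxcr1 was the only 1 of the 20 that passed edgeR's test when the filter on low counts was dropped (edgeR adjusted p = 0.0406).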

How the data were processed

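RNA of 4 TAM libraries was sequenced after polyA enrichment. Reads were aligned by the authors to mm10 with STAR (default settings), with Salmon quantification inside bcbio, and the submitters' processing notes list STAR 2.6.1d, Salmon 1.4.0, Picard 2.26, SAMtools 1.9 and MultiQC 1.11. The annotation used, and how whole numbers were made from Salmon's estimates, are not given in the sources used here. The study's methods and the sample labels differ on the sequencing instrument, read type and number of replicates, and the labels were followed. The deposited table gives 54532 Ensembl genes with unnormalized, whole-number counts.

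GENCODE M21 (GRCm38) gave the symbol, position, biotype and exon length of 54409 genes. A gene was a member by its symbol and protein-coding biotype, and 2 receptor genes whose symbols fit the pattern are not reported here. Members and gene lists were chosen with earlier results of these data known. Each tested member is named with its value in every library, and untested members by raw counts. In pathway lists, at most 4 genes of highest mean level are named.

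Counts were analysed in R 4.3.3 with edgeR 4.0.16: filterByExpr, TMM factors (1.22, 1.19, 0.877 and 0.787 for M7, M8, M9 and M10), glmQLFit and glmQLFTest, with Benjamini-Hochberg adjustment over 16451 genes and a threshold of 0.05. The script was tested on simulated counts. SE is the log2 fold change divided by the root of the F statistic. Total counts, with 3 counts as the smallest signal taken as detectable, set the precision, and floors cover counting error only, since reads carry no molecular identifiers. Alternatives were other scalings, filters, DESeq2 1.42.0, a fold threshold, and leaving out each library. Replicate numbers are not shared between genotypes. Promoter sequences and starts are from RefSeq.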

Additional observations from a re-analysis of the deposited data

How the results depend on the processing

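With 2 libraries per genotype the spread is poorly known, the genotypes differ in cell mix and in mitochondrial share, and the targeted gene is not called lower in the SykMC-KO libraries. DESeq2 size factors and the DESeq2 test called the same 30 members as edgeR with TMM. By library size alone 26 of these were called, Cxcl1, Cxcl10, Cxcl13 and Ccr3 were lost (edgeR adjusted p = 0.335, 0.0862, 0.0833 and 0.0710), and Cxcl12 and Ccl25 were gained. Of the 26 tested ligands, 21 were higher under TMM, 6 when scaled to macrophage markers and 5 when scaled to pan-leukocyte genes, and 2 were lower under TMM, 4 by library size alone, 7 with macrophage markers and 8 with pan-leukocyte genes. Receptors higher were 6 under TMM, 1 with macrophage markers and 0 with pan-leukocyte genes, and those lower were 1, 3 and 4, and 0 when a log2 change of 1 or more, in size, was also asked. Of all 16451 genes, 3729 were higher under TMM, 1677 by library size alone, 136 with macrophage markers and 93 with pan-leukocyte genes. Those lower were 2747, 5411, 14200 and 14873 in the same order, and 1849 under TMM with the fold threshold. The median log2 fold change of the ligands was 3.30 without M7, 2.93 without M8, 2.58 without M9 and 3.45 without M10. That of the receptors was 2.27, 2.50, 1.91 and 2.61 in the same order. Ccl11, Ccl27a, Cxcl1, Cxcl5, Cxcl13, Ccr3 and Ackr3 lost their calls without M7 and also without M8. Cxcl10 lost its call without M8.

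Log2 fold changes that turned negative with macrophage markers were -0.30 for Ccl12, -0.81 for Ccl8, -1.09 for Cxcl10, -1.95 for Cxcl1, -0.35 for Cxcl13, -0.59 for Ccr3, -0.17 for Cxcr2, -0.74 for Cxcr3, -0.41 for Cxcr4 and -2.89 for Cxcr6. With pan-leukocyte genes they were -0.73 for Ccl12, -0.072 for Ccl2, -0.39 for Ccl7, -1.24 for Ccl8, -0.053 for Ccl3, -1.56 for Cxcl10, -2.39 for Cxcl1, -0.89 for Cxcl13, -0.028 for Cxcl14, -0.12 for Cxcl16, -0.071 for Ccr1, -1.001 for Ccr3, -0.59 for Cxcr2, -1.16 for Cxcr3, -0.87 for Cxcr4 and -3.22 for Cxcr6. Cxcr6 was at -0.34 by library size alone and ranged from -5.83 to 1.11 when a library was left out, and Cx3cl1 from -0.65 to 0.054. A scaling shifts the log2 fold changes of all genes by about the same amount. Differences from the median of all genes are therefore nearly fixed and do not test the scaling. The median of the ligands lay above that of all genes by 3.15 under TMM, 3.06 with macrophage markers and 3.10 with pan-leukocyte genes. For the receptors these values were 2.28, 2.20 and 2.23. Causes of the differences between members were not tested. No paired analysis was possible because the genotypes share no replicate number.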
